A study of Mus musculus with 4 samples.

Results

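The genes examined here encode the mitochondrial respiratory chain and ATP synthase, and they were taken by symbol from 4 tables of single-cell counts. The rule kept Nduf genes (complex I and its named assembly factors), Sdha to Sdhd (complex II), Uqcr genes (complex III), Cox4 to Cox8 genes (complex IV), Atp5 genes (complex V) and the protein genes of mitochondrial DNA. It gave 104 of the 16342 genes in any table, of which 91 are encoded in the nucleus and 13 in mitochondrial DNA. The nuclear members comprised 37 subunits and 8 assembly factors of complex I, 4 subunits of complex II, 8 of complex III, 17 of complex IV and 17 of complex V. Ndufa4 is counted with complex IV, where the protein is known to sit. The libraries came from CD11b-sorted cells of the corpus callosum, a white matter tract, of male C57BL/6 mice. The group called week 0 was untreated and the group called week 5 had received cuprizone, a copper chelator that kills oligodendrocytes and strips myelin. Each group had 2 libraries, and an age of 13 weeks is given for both groups. CD11b is an integrin on microglia and other myeloid cells, so that the sort sets which cells were seen, and only 1 sex and 1 strain were sampled. Nothing in the labels ties the libraries to different animals. The p-values of comparisons with week 0 reflect how far these 4 libraries vary, a spread that may be technical. Those of comparisons between groups of cells within week 5 rest on the differences in 2 libraries and largely on a spread shared across genes. Values below are sums over the cells of a library, in which fewer cells of a kind and less RNA per cell cannot be told apart.

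The respiratory chain passes electrons from NADH (complex I) and succinate (complex II) through complexes III and IV to oxygen and pumps protons as it does so. ATP synthase (complex V) uses the proton gradient to make ATP. Complexes I, III, IV and V are built from both genomes: mitochondrial DNA encodes a few hydrophobic core proteins, and the nucleus encodes all other subunits and the whole of complex II.

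The 4 tables held 4000 barcodes, of which 3710 passed the filters on genes, mitochondrial share and doublets, and 6 barcodes occurred in 2 libraries. The tables held between 2415001 and 6559032 unique molecular identifiers (UMIs, each a counted transcript). Kept cells had a median of 1527 and 3919 UMIs in week 0 replicates 1 and 2, and of 6144 and 2495.5 in week 5 replicates 1 and 2. All 12 microglia markers had UMIs in every library, and the microglia list was the leading marker list in 94.7% to 99.7% of cells. Over all kept cells, the summed choroid plexus markers stood at 801 and 0.900 CPM in the week 0 libraries and at 1897 and 2048 CPM in the week 5 libraries. For cell type markers CPM are counts scaled to the library total, and for other genes that total is adjusted by TMM factors. Neutrophil markers summed to 296 CPM in week 0 replicate 2 and to 2.15 CPM or less in each other library. T and NK cell markers summed to 144 CPM in week 5 replicate 2 and to 0.614 CPM or less in each other library. Values for the cells in which microglia markers lead are given beside the comparison of weeks.

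Mitochondrially encoded members made up 2.74% and 1.16% of all UMIs in week 0 replicates 1 and 2, and 2.87% and 1.85% in week 5 replicates 1 and 2. The groups overlapped, with week 0 replicate 2 the lowest and the other week 0 library close to the highest (1.95% ± 1.11 against 2.36% ± 0.719, SD, n = 2 each). Nuclear members made up 0.994% and 0.983% of nuclear UMIs at week 0 and 1.62% and 1.06% at week 5 (0.989% ± 0.00765 against 1.34% ± 0.396, SD, n = 2 each). Both week 5 libraries lay above both week 0 libraries, and most of the difference came from replicate 1. The log2 ratio of the group means was 0.28 for mitochondrial members and 0.44 for nuclear members, but without week 5 replicate 1 the ratios were -0.07 and 0.10. Without week 0 replicate 2 the mitochondrial ratio was -0.21, and without week 0 replicate 1 it was 1.02. With 2 libraries a group, no exact permutation test of a sum could pass 0.05, so none is given.

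Within each library the nuclear share of a cell was higher where the cell had more UMIs, while the mitochondrial share was not. In cells under 3000 UMIs the median nuclear share was 0.416% and 0.524% at week 0 and 0.417% and 0.382% at week 5. In cells with 3000 UMIs or more it was 1.27% and 0.992% at week 0 and 1.43% and 1.06% at week 5. The shallow cells thus held a similar low share in all 4 libraries, and the deep cells held more in each of them. The mitochondrial share went the other way, with medians of 3.91%, 1.44%, 3.76% and 3.14% in shallow cells and 1.67%, 1.03%, 2.41% and 1.26% in deep ones, in the same library order. Shallow cells were 73.4% and 26.9% of the cells at week 0 and 29.2% and 52.6% at week 5, so the libraries mixed both kinds in different parts. The part of this mix in the week 5 to week 0 values was not tested, except by the settings given with each comparison. Spearman's rho between the nuclear share and the UMIs of a cell was 0.53, 0.38, 0.73 and 0.66 over the 926, 905, 965 and 914 cells of the libraries. Between the mitochondrial and the nuclear share it was -0.14, -0.12, -0.04 and -0.27. These are descriptions of cells that share a library and a count total, not tests. Restricted to deep cells, nuclear members made up 1.33% and 1.01% of the summed nuclear UMIs at week 0 and 1.68% and 1.18% at week 5, and the groups then overlapped.

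**Figure D1:**
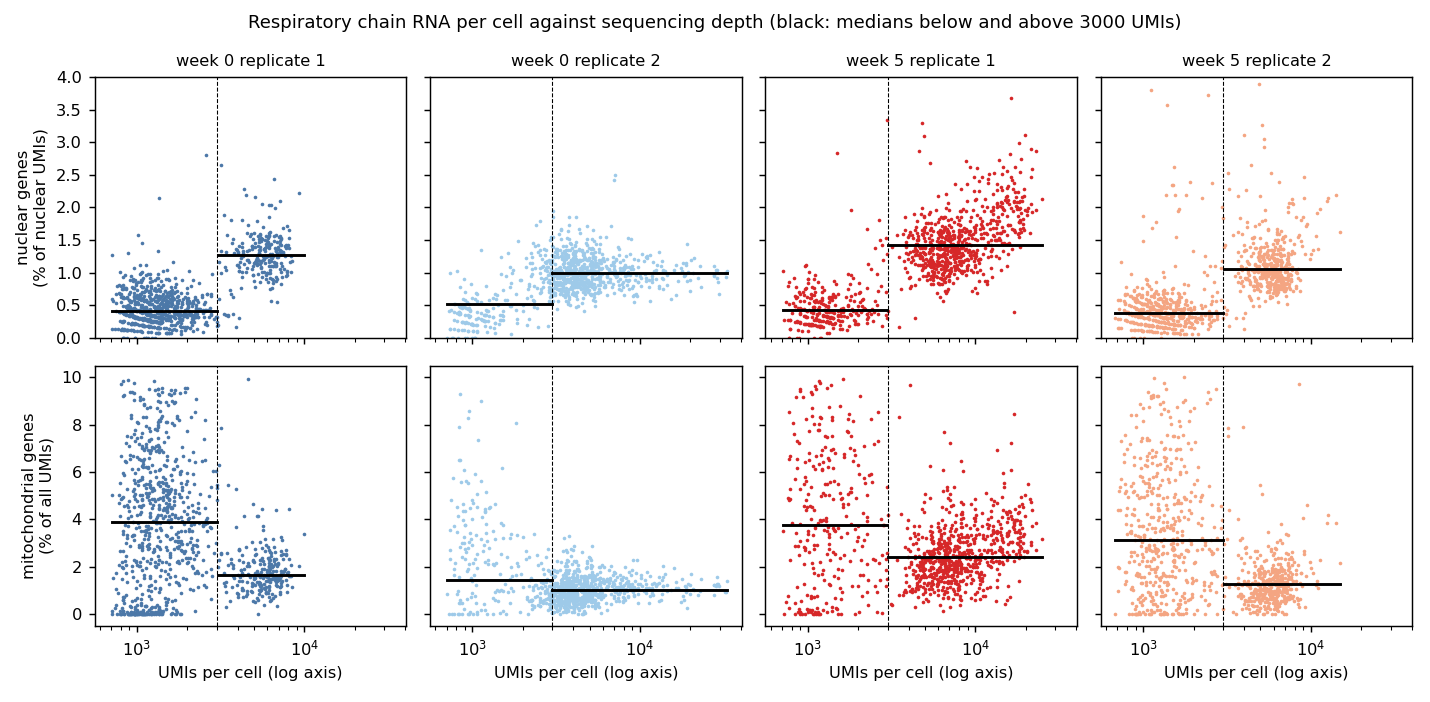
Share of respiratory chain RNA in each cell (points) against UMIs per cell (log axis) in the 4 libraries: nuclear members as a percentage of nuclear UMIs (top) and mitochondrial members as a percentage of all UMIs (bottom). Black lines are medians below and above 3000 UMIs (dashed line). In every library the upper median of the nuclear share lies above the lower one, and for the mitochondrial share it lies below. The top axis ends at 4%, and 21 of the 3710 cells lie above it.

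The 21 cells with a nuclear share above 4% were 3 of week 0 replicate 1, 11 of week 5 replicate 1 and 7 of week 5 replicate 2, and the highest share was 13.4%. Microglia markers led in 1 of them. In cells where these markers led, nuclear members made up 0.919% and 0.981% at week 0 and 1.53% and 1.01% at week 5.

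In the comparison of week 5 with week 0 over all cells, most nuclear respiratory chain genes had higher values at week 5, but few of the differences passed the test after adjustment. Of 101 members that passed the filter on low counts, 1 rose and 0 fell in edgeR's quasi-likelihood test with Benjamini-Hochberg adjustment (2.66% of all 11247 genes tested were called, 2.41% upward and 0.249% downward). At an unadjusted p under 0.05 there were 40, all of them nuclear (13.7% of all genes were at such a p), and DESeq2 called 9, where 3.96% of all genes were called. Nuclear members had a median log2 fold change of 0.61 over 88 genes and mitochondrial members one of 0.48 over 13, against -0.01 over all genes tested. Both week 5 levels lay above both week 0 levels for 47 members, all nuclear, where 21% of all genes did so. The values rested on week 5 replicate 1: without week 5 replicate 2, 66 of 102 members rose (9.33% of all genes rose), and without week 5 replicate 1 the medians were 0.13 for nuclear and -0.02 for mitochondrial members, while Cox6a2 rose and Ndufaf2 fell. With each cell thinned to 1000 UMIs the medians were 0.47 and 0.36, and 3 members rose (2.1% of all genes). Without week 0 replicate 1, 7 of 102 members rose (4.07% of all genes). With no filter on low counts, 20 of 103 rose (4.91% of all genes). In cells with leading microglia markers the medians were 0.55 and 0.48, and Cox6a2 was again the one member called. With TMM factors left out the median of all genes was -0.24, nuclear members stood 0.59 above it, and 76.4% of all calls were upward in place of 90.6%.

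By complex, the nuclear genes of complex IV summed to 2204 and 2148 CPM at week 0, against 5211 and 2662 CPM at week 5, and those of complex V to 2404 and 2468 and then 5212 and 2903 CPM. The 4 genes of complex II summed to 259 and 261 CPM and then to 369 and 241 CPM. Groups thus did not overlap for complexes IV and V and overlapped for complex II. The median log2 fold change was 0.79 over 14 nuclear genes of complex IV, 0.76 over 17 of complex V and 0.71 over 8 of complex III. It was 0.49 over the 37 nuclear subunits of complex I and 0.24 over the 4 genes of complex II. Within complex I the 7 nuclear core subunits, which carry the redox centres, had a median of 0.20 and the 30 accessory subunits one of 0.58. The 8 assembly factors had a median of -0.02. The differences between these medians were not tested.

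The members closest to a call after Cox6a2 encode small accessory subunits. Atp5mpl, a small membrane subunit of ATP synthase, had levels of 106 and 91.0 CPM at week 0, against 303 and 153 CPM at week 5 (log2 fold change 1.21, SE 0.32, adjusted p = 0.0897). Ndufa1, a membrane-anchored accessory subunit of complex I, was at 79.6 and 62.2 CPM and then at 293 and 102 CPM (1.49, SE 0.42, adjusted p = 0.108). For both genes the groups did not overlap, and week 5 replicate 1 held by far the highest level. Uqcrh, the hinge protein of complex III, was at 157 and 179 CPM at week 0, against 559 and 244 CPM at week 5 (1.26, SE 0.37, adjusted p = 0.126). Ndufb1-ps, annotated as a bidirectional-promoter lncRNA despite its subunit name, had a log2 fold change of 1.18 (adjusted p = 0.148). Over the alternatives, the adjusted p ran from 6.4e-07 to 0.38 for Atp5mpl and from 2.35e-09 to 0.468 for Ndufa1.

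At the other end, Ndufs1, the largest core subunit of complex I with several iron-sulphur clusters, was at 45.1 and 36.2 CPM at week 0, against 38.9 and 33.9 CPM at week 5 (log2 fold change -0.15, adjusted p = 0.856). The assembly factors Ndufaf2 and Ndufaf4 had values of -0.23 and -0.21. Sdha, the flavoprotein of complex II that oxidises succinate, was at 102 and 93.6 CPM and then at 112 and 87.7 CPM, with overlapping groups (0.03, SE 0.22, adjusted p = 0.973).

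**Figure D2:**
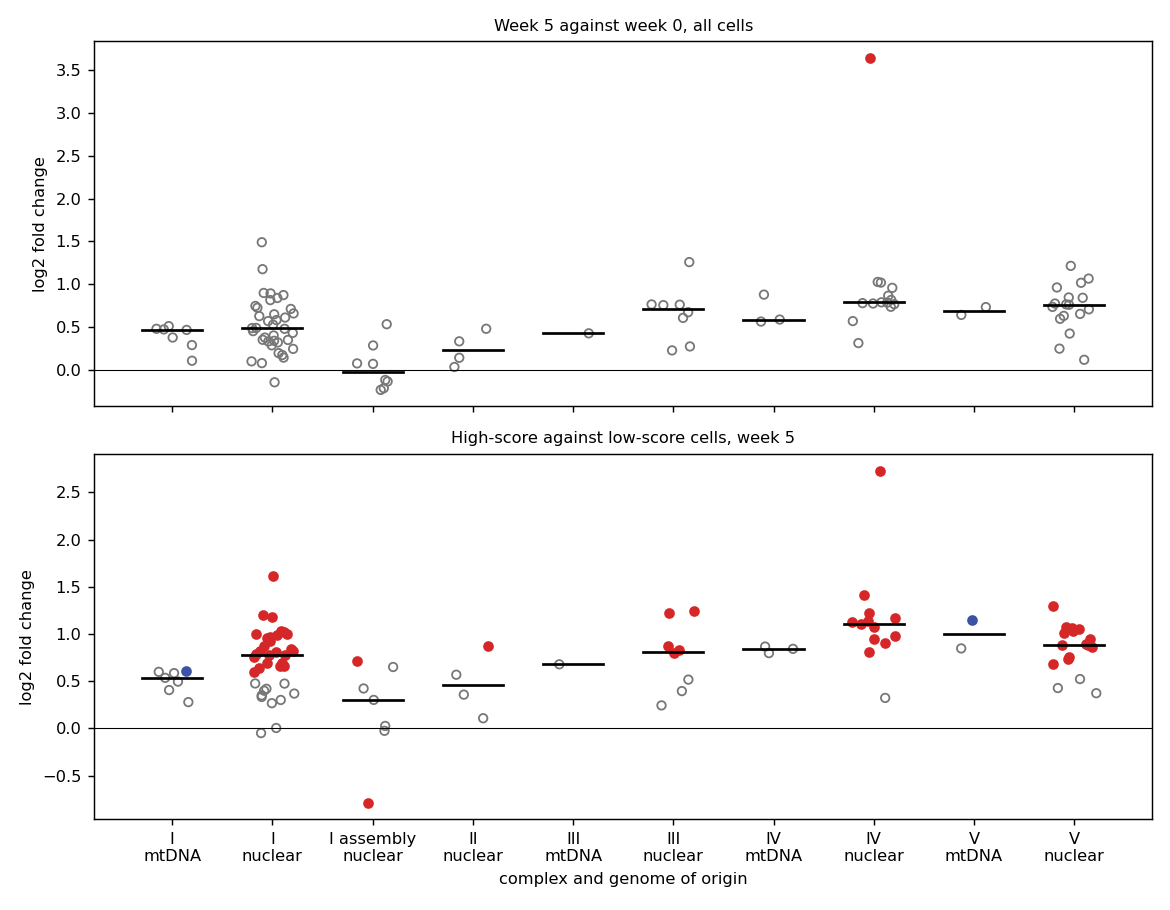
Log2 fold change of each member that passed the filter, by complex and genome of origin, for week 5 against week 0 (top) and for high-score against low-score cells (disease-associated score) at week 5 (bottom). Filled points passed the test (adjusted p under 0.05; red nuclear, blue mitochondrial), open ones did not, and black bars are medians. In the top panel the 1 filled point is Cox6a2, and in the bottom panel 12 of 13 nuclear genes of complex IV are filled.

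Cox6a2 was the 1 member that rose between week 0 and week 5. It encodes the form of cytochrome c oxidase subunit VIa known from heart and skeletal muscle, whereas Cox6a1 encodes the form found in most tissues. Cox6a2 stood at 3.14 and 3.36 CPM in week 0 replicates 1 and 2 (8 and 16 UMIs) and at 58.0 and 23.3 CPM in week 5 replicates 1 and 2 (316 and 77 UMIs). Each week 5 library lay far above each week 0 library, with replicate 1 the highest. The log2 fold change was 3.64 (SE 0.47, adjusted p = 0.00337), and over all alternatives adjusted p was at most 0.0276. Cox6a1 was at 125 and 107 CPM at week 0, against 256 and 137 CPM at week 5 (0.77, SE 0.30, adjusted p = 0.278).

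At week 5 the Cox6a2 level was highest in the cells with a high disease-associated score, a mean over 15 genes known from microglia near damaged tissue that holds no respiratory chain gene. When each week 5 library was split by this score, Cox6a2 was at 11.2 CPM in low-score, 15.8 CPM in middle-score and 123 CPM in high-score cells of replicate 1 (17, 24 and 270 UMIs). In replicate 2 it was 14.2, 12.1 and 48.6 CPM (19, 9 and 49 UMIs). Low-score and middle-score cells lay close to each other in both libraries, and high-score cells stood apart (log2 fold change of high-score over low-score cells 2.73, SE 0.29, adjusted p = 8.95e-08). With cells split by score within bins of depth the value was 1.54, and in each library alone it was 3.35 and 1.66. Over the alternatives adjusted p ran from 5.96e-42 to 0.00404. Cox6a2 (chr7:128205435-128206387, minus strand, GRCm38) lies within the span of Itgad on the plus strand, which had 1 UMI in all 4 libraries. Itgax, 1 of the 15 score genes, ends upstream on the plus strand (chr7:128129547-128150657) and was at 1.57 and 1.47 CPM at week 0, against 132 and 42.9 CPM at week 5. No source used here says whether counting used strand, and the part of neighbouring transcripts in the Cox6a2 value was not tested.

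**Figure D3:**
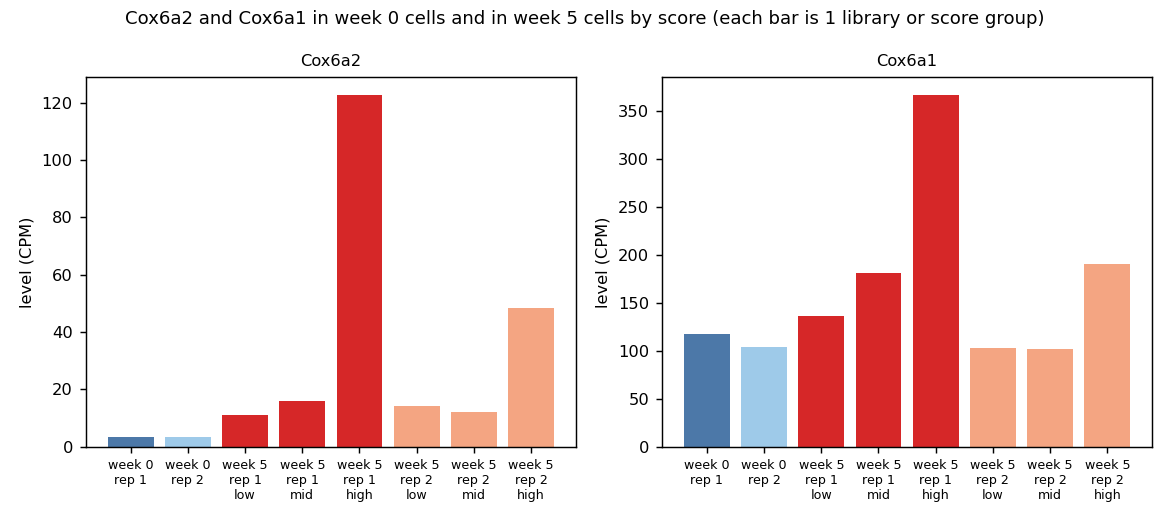
Levels of Cox6a2 (left) and Cox6a1 (right) in CPM for the week 0 libraries and for the low-score, middle-score and high-score cells of each week 5 library. Each bar is 1 value without replicates, and the week 0 bars hold cells chosen like those at week 5 (at least 1000 UMIs, leading microglia markers). Cox6a2 is at 123 and 48.6 CPM in the high-score cells and at 15.8 CPM or less in every other bar.

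The other tissue forms of complex IV had few UMIs. Cox7a1, the muscle form of subunit VIIa, had 5, 1, 14 and 2 UMIs in week 0 replicates 1 and 2 and week 5 replicates 1 and 2. Cox8b, a muscle form of subunit VIII, had 0 UMIs at week 0 and 51 and 2 at week 5. Cox8b had 0 UMIs in the week 5 cells split by score, which were those with leading microglia markers. Cox4i2, a subunit IV form known from lung, had 0 UMIs in the cells kept. These 3 genes did not pass the filter on low counts. Of their widely expressed partners, Cox8a was at 287 and 301 CPM at week 0, against 777 and 414 CPM at week 5, Cox4i1 at 315 and 303 and then 870.5 and 387 CPM, and Cox7a2 at 118 and 139 and then 283 and 159.6 CPM. For each of these the week 5 levels lay above the week 0 levels, and adjusted p was between 0.179 and 0.247.

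For the mitochondrially encoded members the week 0 libraries lay far apart, and for all 13 their range overlapped that of week 5. None was called by edgeR (0 at an unadjusted p under 0.05) or by DESeq2. The complex IV gene mt-Co1, the catalytic subunit with the site of oxygen reduction, was at 3037 and 1322 CPM at week 0, against 5358 and 2654 CPM at week 5. It had the largest log2 fold change of the 13 (0.88, SE 0.52, adjusted p = 0.548). The ATP synthase gene mt-Atp6, which lines the proton channel, was at 3537 and 1485 CPM and then at 5309 and 2522 CPM. Cytochrome b (mt-Cytb), the one mitochondrially encoded protein of complex III, was at 3037 and 1424 CPM and then at 3660.2 and 2333 CPM. Among the 7 complex I genes, mt-Nd5 had the largest value (0.51) and mt-Nd2 the smallest (0.11), from 2404 and 849 to 2265 and 1235 CPM. In each of these genes week 0 replicate 2 was the lowest library. Without week 0 replicate 1 the median of the 13 was 1.26 and mt-Atp8, mt-Nd3 and mt-Nd6 rose, and without week 0 replicate 2 it was -0.02. Without week 5 replicate 2 it was 1.00 and mt-Atp8, mt-Nd5 and mt-Nd6 rose, and without week 5 replicate 1 it was -0.02. The summed mitochondrial level was 2.83 and 1.19 times the summed nuclear level at week 0 and 1.82 and 1.78 times at week 5, so the week 5 ratios lay between the week 0 ones. Neighbouring genes of mitochondrial DNA overlap (mt-Atp8 with mt-Atp6, mt-Nd4l with mt-Nd4, and mt-Nd5 with mt-Nd6 on the other strand), and the split of counts between them is uncertain.

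Within the week 5 libraries, respiratory chain RNA was higher in the cells with a high disease-associated score. Cells with at least 1000 UMIs and leading microglia markers were scored at a thinned depth and split within each library, at the score limits that cut it in 3 equal parts, into low-score, middle-score and high-score cells. These held 291, 284 and 287 cells in replicate 1 and 311, 198 and 255 in replicate 2, in that order. Tied scores made the latter unequal, and 217 and 277 cells lay within 0.05 of a limit. The groups are ranges of a score, not cell types. Homeostatic genes, which the score did not use, were lower in high-score cells in 8 of 10 cases, where 8.3% of all genes fell. Among them was P2ry12, a purine receptor of resting microglia, which fell by 2.16 on the log2 scale. All 10 are also among the microglia markers by which these cells were chosen.

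Of 99 members tested between high-score and low-score cells, 61 rose and 1 fell, where 12.8% of all 9263 genes rose and 8.3% fell. The library was a term in this fit, which leaves little residual freedom with 2 week 5 libraries. Its p-values therefore rest largely on a spread shared across genes, and a small p does not show that the libraries agreed in size. For Ndufa1 the log2 fold change was 2.38 in replicate 1 alone and 0.69 in replicate 2 alone, with an adjusted p of 4.39e-05 in edgeR's test. Without the library term 3 members rose, where 561 of 9263 genes were called. Cox4i2, Cox6b2, Cox7a1, Cox8b and Ndufaf5 did not pass the filter on low counts. For 91 of 99 the level was higher in high-score cells in both libraries, where 34.7% of all genes were so. Of nuclear members 59 of 86 rose (median log2 fold change 0.81) and of mitochondrial ones 2 of 13 (median 0.61), against a median of -0.02 over all genes. At an unadjusted p under 0.05 were 10 of the 13 mitochondrial members, where 31.7% of all genes were, and the difference between the genomes was not tested. Nuclear members made up 1.22%, 1.32% and 1.80% of nuclear UMIs in the low-score, middle-score and high-score cells of replicate 1, and 0.944%, 0.915% and 1.19% in replicate 2. The low-score and middle-score cells thus differed little, and the high-score cells stood above both in each library. Median UMIs per cell were 5352, 5548.5 and 11106 in replicate 1, where depth rose with the score, and 4162, 2403.5 and 4291 in replicate 2, where it did not. With cells split by score within 5 bins of depth, 43 members rose (10.6% of all genes rose) and the nuclear median was 0.43. In cells with at least 3000 UMIs, 71 rose (13.3%) and it was 0.79. With TMM factors left out, which moves the median of all genes to -0.48, 19 rose and 1 fell (6.15% of all genes rose), and nuclear members stood 0.82 above that median. Of all calls 17.2% were then upward, in place of 60.7%. DESeq2 called 37, all upward, where 5.91% of all genes were called upward.

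Other markers also differed between these groups of cells. The summed monocyte markers were at 32.6 CPM in the low-score and 242 CPM in the high-score cells of replicate 1, and at 25.9 and 91.1 CPM in replicate 2. Between 5 and 7 of the 9 monocyte markers had a UMI in each of these groups of cells. Fn1 gave 685 of the 767 monocyte marker UMIs in the high-score cells of replicate 1, and Ms4a4c gave 66. In replicate 2 the marker Ccr2 had 9 UMIs in low-score and 34 in high-score cells, of 31 and 101 monocyte marker UMIs, while in replicate 1 it had 7 and 6. Ly6c2 had 0 UMIs in both groups of cells of replicate 1 and 1 in each of replicate 2, and Chil3 and Hp had 0 UMIs in all 4. Plac8 went the other way, at 9.01 CPM in low-score and 1.89 CPM in high-score cells of replicate 1. In replicate 2 Plac8 was at 10.0 and 0.902 CPM. S100a4 had 4 UMIs in each group of cells of replicate 1 and 2 in each of replicate 2, and Vcan had at most 1 UMI in each group. Summed markers of border-associated macrophages were at 275 and 358 CPM in replicate 1 and 304 and 309.5 CPM in replicate 2. Of the 12 markers, 4 and 12, and 2 and 9, had a UMI. Stab1 made up most of this sum in low-score cells. It was at 267 and 88.9 CPM in replicate 1 and at 295 and 138 CPM in replicate 2. No other marker of this list was lower in the high-score cells of either library. Ms4a7 was at 0 and 54.5 CPM in replicate 1 and at 0 and 99.3 CPM in replicate 2. Pf4 was at 2.08 and 98.7 CPM and at 0 and 28.9 CPM. Of the 4 endothelial markers 2 had UMIs (Flt1 and Pecam1), and the list summed to 18.7 and 76.0 CPM in replicate 1 and 17.6 and 28.0 CPM in replicate 2, with Cldn5 at 0 UMIs. These 2 markers went opposite ways. Flt1 was at 2.08 and 73.8 CPM in replicate 1 and at 0.837 and 22.6 CPM in replicate 2, and Pecam1 at 16.6 and 2.21 CPM and at 16.7 and 5.41 CPM. Of the 3 markers of oligodendrocyte precursors Cspg4 alone had UMIs, 0 and 118 in replicate 1 and 0 and 19 in replicate 2, with Pdgfra at 0. Summed astrocyte markers were at 239.7 and 112 CPM in replicate 1 and 334 and 218 CPM in replicate 2, and summed B cell markers at 265 and 104 CPM and at 226 and 164 CPM. Summed microglia markers were at 32117 and 11656 CPM and at 31665 and 17173 CPM. The part of these markers in the respiratory chain values was not tested.

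**Figure D4:**
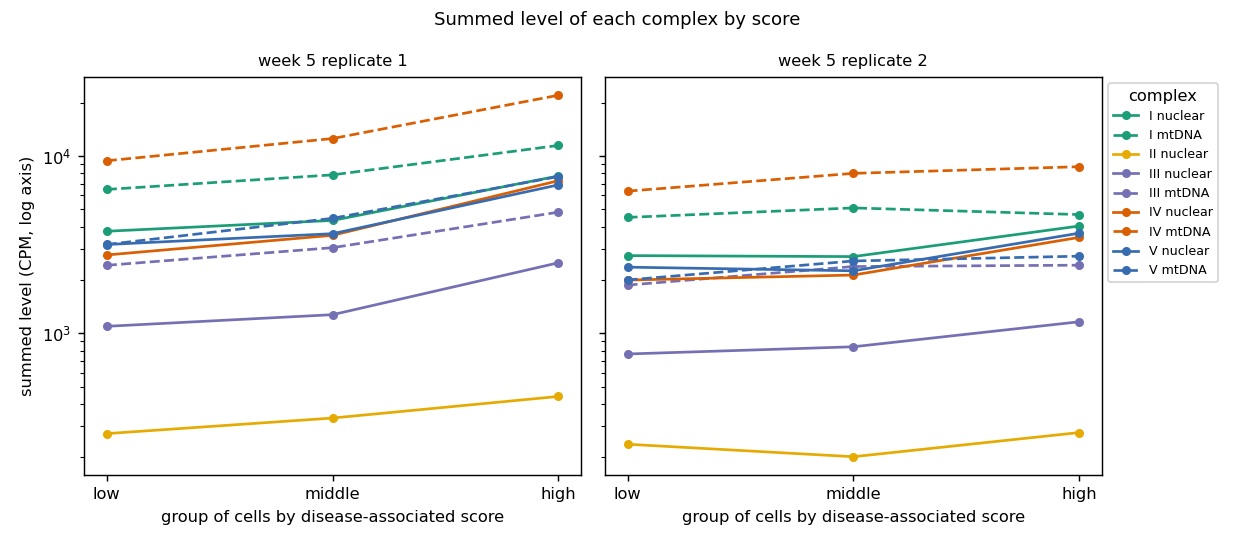
Summed level of each complex in CPM (log axis) in low-score, middle-score and high-score cells (disease-associated score), for week 5 replicate 1 (left) and replicate 2 (right). Solid lines are nuclear members and dashed lines mitochondrial members. The nuclear complex IV sum is highest in high-score cells in both libraries, while in replicate 2 the mitochondrial complex I sum is lower there (4681 CPM) than in middle-score cells (5104 CPM).

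The nuclear genes of complex IV had the largest median of the 5 complexes, 1.10, and 12 of 13 tested rose. Its summed nuclear level was 2769, 3576 and 7271 CPM in the low-score, middle-score and high-score cells of replicate 1 and 1998, 2133 and 3480.1 CPM in those of replicate 2. The sum in high-score cells was thus 2.63 and 1.74 times that in low-score cells on levels scaled by TMM factors. As a share of UMIs the differences were smaller. For all nuclear members the scaled ratios were 2.22 and 1.54. Their shares of nuclear UMIs in low-score and high-score cells were 1.22% and 1.80% in replicate 1 and 0.944% and 1.19% in replicate 2. Cox8a, a small subunit of the oxidase, was at 336, 487 and 1140.3 CPM in replicate 1 and 269.6, 364 and 563 CPM in replicate 2 (log2 fold change 1.41, SE 0.23, adjusted p = 5.46e-05). Cox4i1, which binds ATP and tunes the enzyme, was at 455, 595 and 1290.5 CPM and at 286, 311 and 551 CPM (1.23, SE 0.23, adjusted p = 0.000271). Both genes stepped up from each group of cells to the next in each library. Rises also passed for Cox6a1 (1.17), Cox6b1 (1.13) and Cox5b (1.10), and Cox7a2l rose by 0.98. Ndufa4 was the exception, at 201 and 274 CPM in the low-score and high-score cells of replicate 1 and 154 and 176 CPM in replicate 2 (0.32, SE 0.19, adjusted p = 0.259).

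Complex V followed, with 14 of 17 nuclear genes risen and a median of 0.89. Atp5mpl was at 139.8, 215 and 433 CPM in replicate 1 and 111, 113 and 210.1 CPM in replicate 2 (log2 fold change 1.29, SE 0.21, adjusted p = 4.19e-05). Atp5e, the smallest subunit of the catalytic head, rose by 1.08 and Atp5g2, a subunit of the turning proton ring, by 1.07. The 3 genes not called were chosen for mention after their values were seen: Atp5a1 (0.43) and Atp5b (0.52), whose products form the catalytic hexamer, and Atp5f1 (0.37), of the stalk. In complex III 5 of 8 rose, led by Uqcr10, a small subunit beside cytochrome c1 (116, 160.4 and 322 CPM in replicate 1, 74.1, 93.9 and 145 CPM in replicate 2; 1.24, SE 0.20, adjusted p = 3.77e-05). Uqcrh rose by 1.22 and Uqcrq by 0.83. The 3 not called, likewise named after the fact, were the core proteins Uqcrc1 (0.52) and Uqcrc2 (0.24) and the Rieske iron-sulphur protein Uqcrfs1 (0.40).

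In complex I, 26 of 37 nuclear subunits rose (median 0.77), of which 23 of 30 were accessory and 3 of 7 core subunits. Ndufa1 was at 93.9, 163 and 489.6 CPM in the 3 groups of cells of replicate 1 and 82.4, 63.1 and 133 CPM in those of replicate 2 (log2 fold change 1.62, SE 0.26, adjusted p = 4.39e-05). High-score cells had the highest level in each library, but the step was larger in replicate 1 (2.38, against 0.69 in replicate 2 alone). Over the alternatives the adjusted p ran from 5.28e-26 to 0.304. Ndufb1-ps rose by 1.20, Ndufa2 by 1.18, Ndufb5 by 1.03, Ndufv3 by 1.02 and Ndufa13 by 0.93, all accessory subunits by name. Ndufs1 was at 38.1, 40.3 and 35.9 CPM and at 30.0, 37.6 and 30.7 CPM (-0.05, SE 0.25, adjusted p = 0.921).

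In complex II, 1 of 4 genes rose: Sdhb, the iron-sulphur subunit, was at 76.8 and 177 CPM in the low-score and high-score cells of replicate 1 and 60.7 and 82.2 CPM in replicate 2 (log2 fold change 0.87, SE 0.20, adjusted p = 0.0022). Sdha had 0.11. Among the assembly factors, Ndufaf7, a methyltransferase that modifies a core subunit of complex I, fell. It was at 61.0, 44.9 and 33.7 CPM in replicate 1 and at 68.2, 67.1 and 42.6 CPM in replicate 2, lowest in the high-score cells of both (log2 fold change -0.79, SE 0.22, adjusted p = 0.00941). It was not called by DESeq2 (adjusted p = 0.478), and the adjusted p ran from 9.23e-05 to 0.478 over the alternatives. Ndufaf8 rose by 0.72, and the other 5 tested did not pass. On levels scaled by TMM factors, the assembly factors' sum in high-score cells was 1.16 and 1.04 times that in low-score cells of replicates 1 and 2. This direction rests on the scaling. As a share of all UMIs the sum was lower in high-score than in low-score cells of both libraries.

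The mitochondrially encoded members were uneven across the week 5 libraries. In replicate 1 their summed level was 21501, 27921 and 46077 CPM in low-score, middle-score and high-score cells, and in replicate 2 it was 14730.2, 18045 and 18551 CPM. These CPM are scaled by TMM factors. As a share of all UMIs, mitochondrial members made up 2.27%, 2.69% and 3.19% in replicate 1 and 1.65%, 1.94% and 1.69% in replicate 2. The median share per cell was 2.23%, 2.53% and 3.11% in replicate 1 and 1.52%, 2.16% and 1.37% in replicate 2. Both measures were thus highest in the high-score cells of replicate 1 and in the middle-score cells of replicate 2. On the scaled levels high-score cells had 2.14 and 1.26 times the sum of low-score cells, with a median log2 fold change of 1.07 in replicate 1 alone and 0.22 in replicate 2 alone. For the nuclear sum these ratios were 2.22 and 1.54, with medians of 0.96 and 0.55. The difference between the 2 libraries was not tested, since each gave 1 value per group of cells. The 2 genes that rose were mt-Atp8, a short membrane subunit of ATP synthase (131, 182 and 315 CPM in replicate 1, 44.2, 71.1 and 87.2 CPM in replicate 2; 1.14, SE 0.20, adjusted p = 0.000105), and mt-Nd4l. The latter was at 255, 324 and 496 CPM and at 159.5, 197 and 185 CPM, so that its rise in replicate 2 was small (0.61, SE 0.21, adjusted p = 0.0399). The subunits mt-Co1 (adjusted p = 0.0558), mt-Atp6 (0.0569), mt-Co2 (0.0607) and mt-Co3 (0.0652) lay just outside the threshold with log2 fold changes of 0.80 to 0.87. The 7 complex I genes had a median of 0.54, and in replicate 2 mt-Nd1 stood at 1275, 1426 and 1315 CPM and mt-Nd6 at 41.2, 38.9 and 35.7 CPM. With each cell thinned to 1000 UMIs the median of the 13 was 0.20, and in cells with at least 3000 UMIs it was 0.89. The number of the 13 that rose ran from 0 with thinned cells to 9 without cells under 1% mitochondrial UMIs, 12 in these deep cells and 13 with the score taken as a number of genes. Of all genes 11% rose with thinned cells and 13.3% in deep cells. Without cells under 1% mitochondrial UMIs 1863 of 8787 genes were called, 60.3% of them upward. With the score as a number of genes 2875 of 10049 were called, 57.6% of them upward. Over the alternatives, adjusted p ran from 6.49e-07 to 0.665 for mt-Atp8 and from 0.000248 to 0.666 for mt-Nd4l.

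The nuclear members that rose tended to have short transcripts. Across the 84 nuclear members with a length in the annotation (median length of protein-coding transcripts, GENCODE M21), Spearman's rho between length and log2 fold change in high-score against low-score cells was -0.58, and it was -0.57 over 86 members at week 5 against week 0. Over the genes that are no members it was -0.24 and -0.23. These are correlations across genes of the same libraries, and genes are not independent replicates. In that comparison 48 of 61 members under 1000 bases rose (78.7%), against 24.2% of other genes of that length. Of the 23 longer members 9 rose (39.1%), against 9.5% of longer genes. The share that rose was thus larger among members in both classes of length, and larger in the short class among members and other genes. The part of length in these values was not tested.

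**Figure D5:**
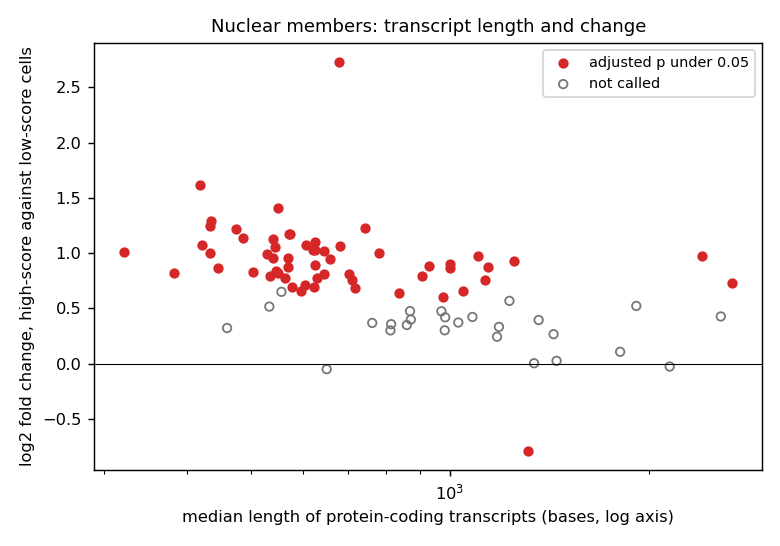
Log2 fold change of nuclear members in high-score against low-score cells at week 5 (vertical) by the median length of their protein-coding transcripts in bases (log axis). Filled points passed the test (adjusted p under 0.05) and open ones did not. Most filled points lie under 1000 bases (48 of 61 members of that length rose).

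The promoters of members that rose are shown for Ndufa1, Uqcrh, Cox8a and Cox6a1, chosen after their values were seen, since these genes rose together in high-score cells. The windows run from 250 bases before to 50 bases after the start site (RefSeq, GRCm38.p6), all on the minus strand: Ndufa1 at chrX:37191189-37191488, Uqcrh at chr4:116075021-116075320, Cox8a at chr19:7217567-7217866 and Cox6a1 at chr5:115348909-115349208. Capitals mark matches on either strand to motifs known from promoters of mitochondrial genes: the ETS core CCGGAA (bound by GABP, also called NRF2), the NRF1 motif (GCGCA and GCGC with any 1 base between), the YY1 motif AAGATGGC and the CCAAT box. The matches printed do not overlap each other.
Ndufa1: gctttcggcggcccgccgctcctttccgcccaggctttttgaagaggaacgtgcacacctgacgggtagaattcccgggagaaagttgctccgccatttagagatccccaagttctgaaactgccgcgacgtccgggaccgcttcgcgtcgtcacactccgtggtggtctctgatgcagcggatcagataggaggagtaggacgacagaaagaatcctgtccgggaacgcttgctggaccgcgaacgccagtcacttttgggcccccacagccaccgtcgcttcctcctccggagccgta
Uqcrh: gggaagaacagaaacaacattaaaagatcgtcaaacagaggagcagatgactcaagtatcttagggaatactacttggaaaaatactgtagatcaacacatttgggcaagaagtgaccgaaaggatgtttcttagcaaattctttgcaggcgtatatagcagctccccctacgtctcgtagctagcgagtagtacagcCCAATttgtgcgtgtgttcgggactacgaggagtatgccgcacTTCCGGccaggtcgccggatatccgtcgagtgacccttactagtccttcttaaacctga
Cox8a: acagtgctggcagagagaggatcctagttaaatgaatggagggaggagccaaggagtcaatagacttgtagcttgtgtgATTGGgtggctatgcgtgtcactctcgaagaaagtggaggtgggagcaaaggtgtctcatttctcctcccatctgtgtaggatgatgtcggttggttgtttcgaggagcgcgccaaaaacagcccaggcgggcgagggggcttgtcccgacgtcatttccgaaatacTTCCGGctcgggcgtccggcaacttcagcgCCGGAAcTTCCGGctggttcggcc
Cox6a1: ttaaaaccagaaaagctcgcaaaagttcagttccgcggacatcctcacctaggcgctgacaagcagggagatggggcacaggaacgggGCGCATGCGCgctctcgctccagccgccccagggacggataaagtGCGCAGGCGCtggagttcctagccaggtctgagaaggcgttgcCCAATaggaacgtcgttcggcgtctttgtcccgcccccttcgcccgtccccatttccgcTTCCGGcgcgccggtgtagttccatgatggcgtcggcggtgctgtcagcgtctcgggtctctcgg
Cox8a held 3 ETS matches and 1 CCAAT match, Uqcrh 1 of each, and Cox6a1 1 ETS, 2 NRF1 and 1 CCAAT match. Ndufa1 held none of these letters in this window, which lies wholly upstream of the gene's start in GENCODE M21 (chrX:37191163). The windows of the other genes shown reach into their annotated spans. A promoter window was in the table for 74 of the 91 nuclear members. The ETS core occurred in 37.8% of them, against 15.2% of all 27025 promoters, and in 42.9% of the 49 whose gene rose in high-score cells. The NRF1 motif occurred in 24.3% of member promoters and 22.4% of those that rose, against 4.78% of all. The YY1 motif occurred in 12.2% against 2.88%, and the CCAAT box in 44.6% against 37.9%. A match is a run of letters and not a shown binding site.

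The low-score cells of week 5 were also set against all week 0 cells with at least 1000 UMIs and leading microglia markers. These week 0 cells were not chosen by score. Median UMIs per cell were 5352 and 4162 in the low-score cells of week 5 replicates 1 and 2. In week 0 cells split by score they were 1592 to 1809 in replicate 1 and 4027 to 4118.5 in replicate 2. Of 99 members tested, 0 were called by edgeR's quasi-likelihood test (0.816% of all 9929 genes were, 0.765% upward and 0.0504% downward) and 0 by DESeq2, with 7 at an unadjusted p under 0.05, where 5.91% of all genes were. The median log2 fold change was 0.17 for nuclear and 0.07 for mitochondrial members, against 0.00 for all genes. These medians turned with single libraries: the nuclear one was -0.11 without week 5 replicate 1 and 0.37 without week 5 replicate 2, and the mitochondrial one ran from -0.44 without week 0 replicate 2 to 0.83 without week 0 replicate 1. Low-score cells of both week 5 libraries lay above both week 0 libraries for 15 members, where 16.3% of all genes did so. Cox6a2 was nearest to a call, at 11.2 and 14.2 CPM in the low-score cells of replicates 1 and 2 (log2 fold change 1.91, SE 0.47, adjusted p = 0.0568). It was called when mitochondrial mRNAs were left out of the counts. Without week 0 replicate 1, mt-Atp8, mt-Nd3 and mt-Nd6 were called, and without week 5 replicate 2, Atp5md, an ATP synthase membrane subunit. A p above the threshold does not show that these cells equal week 0 cells.

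Other genes of energy metabolism were counted in the same comparisons. In high-score against low-score cells, where 12.8% of all genes rose, glycolysis genes rose in 13 of 17 cases (76.5%, median 1.33, 9 called by DESeq2), among them Pgk1, a kinase that yields ATP, by 2.20 and Tpi1, which interconverts triose phosphates, by 2.11. The list of uncoupling, antioxidant and ATP export genes rose in 12 of 18 cases (66.7%, median 0.65, 7 called by DESeq2), among them Prdx5, a peroxidase (1.07), Gpx4, which reduces lipid peroxides (1.00), and the phosphate carrier Slc25a3 (0.92). Chchd10, an intermembrane space protein, had the smallest p of this list, and no fold is given because its counts in low-score cells were close to 0. Of Krebs cycle genes 0 of 18 were called by edgeR or DESeq2, and 2 had an unadjusted p under 0.05 (median 0.13). Mitochondrial ribosome genes rose in 17 of 77 cases (22.1%, median 0.33, led by Mrps36), of which DESeq2 called 3. Electron carrier and coenzyme Q genes rose in 3 of 15 cases (20.0%), namely Coq7, Cycs and Etfa. Assembly factors outside the symbols above rose in 6 of 36 cases (16.7%, near the share of all genes, median 0.13), with Surf1, a complex IV assembly factor, at 1.11. Of the genes for upkeep and transcription of mitochondrial DNA 1 of 17 rose (5.88%, Slirp, median of the list -0.05). DESeq2 called 0 genes of these last 3 lists, in which 4, 12 and 1 had an unadjusted p under 0.05 in edgeR's test. No gene of these 7 lists fell in edgeR's test. At week 5 against week 0 over all cells, 1 gene of these lists was called by edgeR, Coq7 (1.43, SE 0.30, adjusted p = 0.0339), which hydroxylates a precursor of coenzyme Q.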

How the data were processed

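Each deposited table holds 1 library as raw counts of UMIs, with genes in rows and cells in columns. The submitters' processing notes list mm10 as the build, and the tools Cell Ranger 3.0.0, STAR and Seurat 4. The sources used here do not state how cells and genes were chosen before deposit. Genes missing from a table were taken as 0. No deposited cell exceeded 10% mitochondrial UMIs, so this limit removed 0 cells, and cells with higher shares were not analysed here. Cells under 500 genes (272) were left out, and scrublet (scanpy 1.11.5) marked 18 of 3728 as doublets (0.483%, so few that doublets may remain).

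Counts were summed per library, or per library and score group, and tested over the whole table with edgeR 4.0.16 in R 4.3.3 (TMM factors, filterByExpr, quasi-likelihood test, Benjamini-Hochberg over all genes, threshold 0.05), with the library as a term in the comparison of high-score with low-score cells. The code was tested on simulated data. CPM are relative to the effective library size, except marker sums, which are relative to all UMIs. The score is the mean of log2(1 + UMIs) over 15 genes in cells thinned to 1000 UMIs. DESeq2 1.42.0 and other settings were alternatives. Symbols were matched to GENCODE M21 (GRCm38). Many members have near-identical copies elsewhere in the genome, and their counts are uncertain to that extent.

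Named were all mitochondrial members, the 2 highest nuclear members of each complex, called members (up to 15 by p in a comparison), the 3 largest changes each way and the paired tissue forms; other members were chosen after their values were seen. The members and lists were chosen with earlier results of these data known. Replicate numbers were not used to pair the libraries, except in the alternatives with a replicate block.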

Additional observations from a re-analysis of the deposited data

How the results depend on the processing

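Counts of members called depended on the setting. For week 5 against week 0 (1 called), there were 9 with DESeq2, 20 with no filter on low counts, 4 under a common limit on genes per cell (2996 genes), 3 after thinning and 2 with TMM factors left out, and leaving out 1 library gave from 1 to 66. With microglia markers leading, without cells under 1% mitochondrial UMIs, in cells with at least 3000 UMIs (an alternative chosen after seeing the data) and without mitochondrial mRNAs it stayed at 1, Cox6a2. Over all genes, 299 of 11247 were called, 445 of 11247 with DESeq2 and 919 of 15953 with no filter. There were 503 of 10911 under the common limit, 189 of 8602 after thinning and 377 of 11247 with TMM factors left out. The settings that stayed at 1 gave 367 of 11035, 230 of 10494, 107 of 10794 and 306 of 11234, in the order named. For high-score against low-score cells (62 called), there were 37 with DESeq2, 40 after thinning and 20 with TMM factors left out, where 17.2% of all calls were upward against 60.7%. It was 44 within depth bins, 60 without mitochondrial mRNAs, 65 with no filter, 69 without mitochondria-poor cells, 72 in deep cells and 83 with the score counted by genes. Over all genes, 1956 of 9263 were called. There were 698 of 9263 with DESeq2, 901 of 5105 after thinning and 3308 of 9263 with TMM factors left out. The next settings gave 1661 of 9605 within depth bins, 1986 of 9260 without mitochondrial mRNAs and 2162 of 14479 with no filter. Without mitochondria-poor cells 1863 of 8787 were called, in deep cells 1959 of 8914, and with the score counted by genes 2875 of 10049. With 1 library left there is no residual freedom among samples, so those values carry no test. For low-score cells against week 0 (0 called), there was 1 without mitochondrial mRNAs, and leaving out 1 library gave from 0 to 3. Over all genes, 81 of 9929 were called in that comparison, and 85 of 9916 without mitochondrial mRNAs. Causes were not tested.

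The labels do not say whether libraries with the same replicate number belong together. Their deviations from the group means correlated at -0.04 over 11247 genes. With 2 libraries a group this value cannot decide whether same-numbered libraries were handled together. With the replicate block, 2 members were called for week 5 against week 0 (Cox6a2 and Ndufa1) and 1 for low-score cells against week 0 (Cox6a2). Over all genes, 381 of 11247 and 98 of 9929 were called with it. High-score and low-score cells of 1 library are paired by that library, and with no replicate block 3 were called (Cox6a2, Atp5mpl and Cox8a). Of all 9263 genes 561 were then called.

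The log2 ratio of the summed mitochondrial share (0.28) ran from 0.16 to 0.50 over the settings and from -0.21 to 1.02 with 1 library left out; that of the nuclear share (0.44) ran from 0.29 to 0.44 and from 0.10 to 0.71. The depth of the shallow cells limits what can be read for genes of low level.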
